A study of Homo sapiens with 8 samples.

Results

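The 10 genes described here belong to the pathway of the coactivator YAP and its DNA-binding partners, the TEAD factors, out of 26830 gene symbols measured. They are the secreted proteins CYR61 (now named CCN1), CTGF (now CCN2) and THBS1, the nuclear protein ANKRD1, the junctional scaffold AMOTL2, the LIM-domain adaptor AJUBA, the kinase LATS2, the factor TEAD1, and the coactivators YAP1 and WWTR1 (TAZ). The list was chosen by name with the TPM values of all 8 libraries and earlier results of these data known, among them the higher input level of CYR61 under METTL16 guides. Levels and differences of the 10 genes are therefore given as a description. All 10 were found in the table.

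In the Hippo pathway, the kinases STK3 and STK4 activate LATS1 and LATS2, which phosphorylate YAP and TAZ and keep them out of the nucleus. Unphosphorylated YAP and TAZ enter the nucleus and bind TEAD factors, which raises transcription of genes such as CTGF, CYR61 and ANKRD1. The pathway responds to cell density, cell shape and matrix stiffness, and in liver it restrains organ growth. YAP and TAZ act mainly through changes in protein location and stability, which RNA libraries do not measure.

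The cells were labelled as a single clone of HEK293T, an embryonic kidney line, that carries the nuclease Cas9. Cultures with 1 of 3 lentiviral guides against METTL16 (sgMETTL16-1, sgMETTL16-2 and sgMETTL16-3) were set against 1 culture with a negative control guide (sgNS). METTL16 is an RNA methyltransferase. All cultures were kept in blasticidin (10 µg/ml) and puromycin (2 µg/ml) and received cycloheximide (100 µg/ml, 5 min). Every guide label has input RNA and ribosome footprints (17 to 34 nt). The labels do not state outright that both came from 1 culture. The study asked how METTL16 affects translation. The 3 sgMETTL16 cultures are treated as replicates although each carries its own guide, and sgNS has no replicate. Values are TPM, a share of all transcripts scaled by transcript length, so the depth of a library is unknown.

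METTL16 itself was at 4.72, 5.25 and 4.16 TPM in the inputs of the sgMETTL16 cultures 1, 2 and 3, against 5.31 TPM in sgNS, a difference that was not called (log2 change -0.68 after centring, SE 0.36, and -0.15 as deposited). A guide cut need not lower a transcript, so input RNA checks these labels weakly. In the footprints METTL16 was listed at 0 in all 3 sgMETTL16 libraries and at 19.76 TPM in sgNS. Footprint values moved in coarse steps, described below, and the steps of METTL16 were not worked out. No loss of METTL16 is therefore read from these values. Inputs held 18407 to 18805 genes above 0 in sgMETTL16 and 17982 in sgNS, and footprints held 4362 to 6735 in sgMETTL16 and 4586 in sgNS. Protein-coding genes took 25.4%, 26.3% and 20.1% of input TPM in sgMETTL16-1, sgMETTL16-2 and sgMETTL16-3, and 20.3% in sgNS. The sgMETTL16-3 footprints stood apart, with 11.9% of TPM in protein-coding genes, against 26.8% to 28.2% in the other footprint libraries. Markers of the labelled cell type were present only in part. Of 14 listed HEK293 markers 13 were in the table, and 6 of those were under 1 TPM in all inputs. The keratin gene KRT8 had 609.54, 795.55 and 777.26 TPM in the sgMETTL16 inputs and 354.06 TPM in sgNS, and KRT18 and TUBB3 were also abundant. NEFL and NEFM, neurofilament genes, were listed at 0 in all 8 libraries. The inputs listed VIM at 0, yet it had footprints of 43.30 to 85.16 TPM in sgMETTL16 and 188.14 TPM in sgNS, and GATA3, also at 0 in the inputs, had footprints in 3 of the 4 footprint libraries, so a value of 0 is not read as absence. The 12 markers of hepatocytes, by contrast, each reached at least 10 TPM in every input, so the labelled cell line is in doubt.

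The promoters of CTGF, ANKRD1 and THBS1 are shown because these genes had the TEAD element and stood among the 4 members with the widest input difference. CYR61, the remaining gene of those 4, had no matched promoter window and was not searched. They run from 250 bases before the annotated start to 50 after it (RefSeq, GRCh38.p14), in the direction of the gene. Capitals mark GGAATG, the core element that TEAD factors recognise, and in all 3 windows it lay in the direction of the gene. The CTGF window is chr6:131951323-131951622 (minus strand), that of ANKRD1 is chr10:90921038-90921337 (minus strand) and that of THBS1 is chr15:39580829-39581128 (plus strand).
CTGF: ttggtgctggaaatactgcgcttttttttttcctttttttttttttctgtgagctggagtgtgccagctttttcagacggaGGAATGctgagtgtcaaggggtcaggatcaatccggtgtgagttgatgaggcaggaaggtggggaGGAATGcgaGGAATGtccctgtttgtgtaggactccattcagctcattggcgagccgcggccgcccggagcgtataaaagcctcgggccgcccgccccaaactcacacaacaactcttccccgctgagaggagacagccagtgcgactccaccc
ANKRD1: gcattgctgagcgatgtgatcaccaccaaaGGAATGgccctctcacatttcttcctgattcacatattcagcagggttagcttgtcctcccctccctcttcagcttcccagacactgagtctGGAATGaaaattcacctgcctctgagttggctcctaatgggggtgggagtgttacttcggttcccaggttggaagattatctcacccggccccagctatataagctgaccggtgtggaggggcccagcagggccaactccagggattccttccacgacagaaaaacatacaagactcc
THBS1: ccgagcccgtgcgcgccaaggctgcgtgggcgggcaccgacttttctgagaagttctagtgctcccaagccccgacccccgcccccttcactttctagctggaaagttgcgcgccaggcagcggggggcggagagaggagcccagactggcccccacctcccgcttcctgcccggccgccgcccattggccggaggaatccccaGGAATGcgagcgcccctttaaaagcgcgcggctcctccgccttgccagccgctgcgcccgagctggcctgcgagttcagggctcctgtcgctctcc

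CTGF held GGAATG 3 times, beginning 169, 104 and 95 bases before the start. ANKRD1 held it 2 times, beginning 220 and 128 bases before the start, and THBS1 held it once, beginning 46 bases before it. GGAATG on either strand occurred in 14.0% of the 35116 promoter windows, at least 2 times in 1.37% and at least 3 times in 0.128%. Among the 12264 windows of genes tested in the input the shares were 11.6%, 0.938% and 0.0734%. A window for 8 of the 10 members was matched, 11 windows in all, since AJUBA, AMOTL2 and WWTR1 have 2 starts each. CYR61 and TEAD1 had no matched window, so nothing is known here of their promoters. LATS2 held the element 9 bases after its start and YAP1 162 bases before. AJUBA and AMOTL2 held it in 1 of their 2 windows each, on the opposite strand in AMOTL2. No match fell in either window of WWTR1. Other elements were searched on both strands. TGANTCA is a loose form of the AP-1 element that allows any middle base. It was found in ANKRD1 alone among the matched members, as TGATTCA (7.71% of all windows, 5.06% of those of tested genes). TATAAA was found in CTGF alone (11.5% and 6.04%), and the CArG box of the serum response factor SRF in no matched member (1.29% and 1.1%). A short match describes these letters and does not show a bound site.

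**Figure D1:**
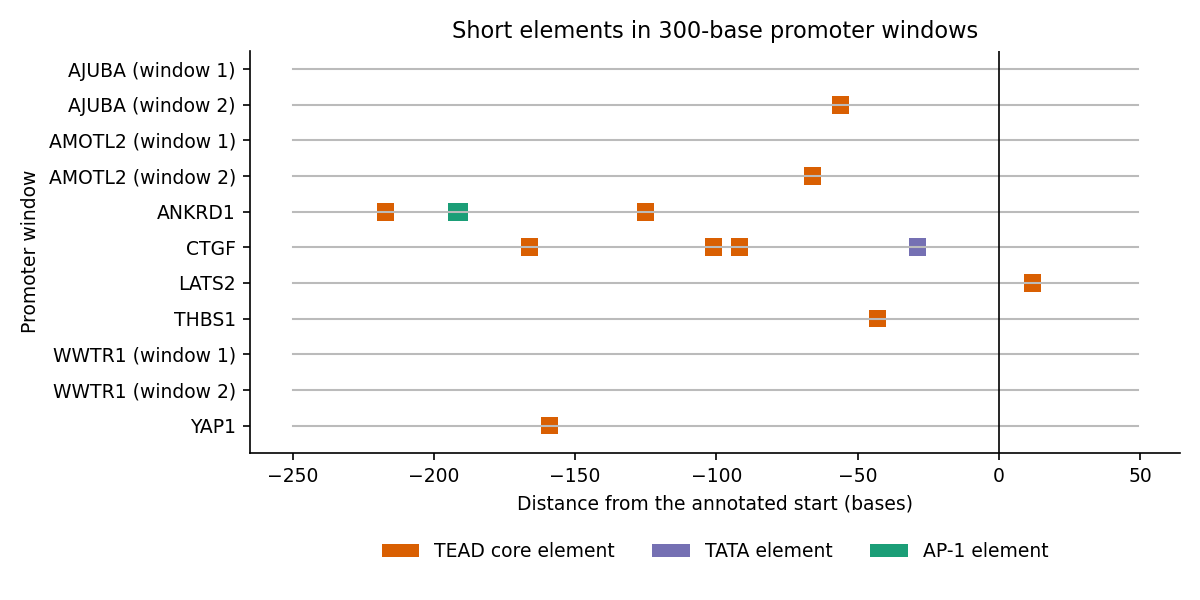
Position of 3 short elements in the promoter windows of 8 genes; the x axis gives bases from the annotated start (vertical line), each grey line is a window of 300 bases and blocks are matches on either strand. CTGF carries 3 TEAD core elements, ANKRD1 carries 2, and both windows of WWTR1 are empty. The block named as an AP-1 element is a match to the loose form TGANTCA.

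CYR61 and CTGF are matricellular proteins of the CCN family, secreted into the matrix, where they bind integrins. CYR61 (chromosome 1, 85580761 to 85583950, GRCh38.p14) had input values of 8.99 TPM in sgMETTL16-1, 17.53 TPM in sgMETTL16-2 and 13.97 TPM in sgMETTL16-3, against 2.32 TPM in sgNS. Every sgMETTL16 culture was above the control, and the mean of 13.5 ± 4.29 TPM (SD, n = 3) was 5.82 times the sgNS value. CTGF (chromosome 6, 131948176 to 131951372) was the most abundant member in every input, with 192.47 TPM in sgMETTL16-1, 156.30 TPM in sgMETTL16-2 and 121.71 TPM in sgMETTL16-3, against 53.15 TPM in sgNS. Its mean of 157 ± 35.4 TPM (SD, n = 3) was 2.95 times the sgNS value, and no sgMETTL16 library overlapped the control. The other 4 members of the family (NOV, WISP1, WISP2 and WISP3) reached no more than 0.05 TPM in any input.

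ANKRD1 encodes an ankyrin-repeat protein that acts in the nucleus and, in muscle, at the sarcomere. ANKRD1 (chromosome 10, 90912096 to 90921087) had 8.04 TPM in the sgMETTL16-1 input, 23.65 TPM in that of sgMETTL16-2 and 7.18 TPM in that of sgMETTL16-3, against 2.02 TPM in sgNS. The sgMETTL16-2 library stood far above the other libraries, and the mean of 13.0 ± 9.27 TPM (SD, n = 3) had the widest relative spread of the 10 genes. THBS1 (chromosome 15, 39581079 to 39599466) encodes thrombospondin-1, a secreted inhibitor of angiogenesis that can activate latent TGF-beta. It was at 44.57, 84.73 and 65.58 TPM in the sgMETTL16 inputs, in the order of their numbers as in all lists of 3 values that follow, against 14.51 TPM in sgNS. The mean of 65.0 ± 20.1 TPM (SD, n = 3) was 4.48 times the control, and the other 4 thrombospondin genes stayed under 1 TPM in all inputs.

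AMOTL2, LATS2 and AJUBA act back on the pathway: angiomotin-like proteins hold YAP at junctions, LATS2 phosphorylates it, and AJUBA restrains LATS kinases. AMOTL2 (chromosome 3, 134355345 to 134375417) was at 5.55, 9.28 and 7.60 TPM in the sgMETTL16 inputs and at 2.69 TPM in sgNS, a ratio of means of 2.78. LATS2 (chromosome 13, 20973036 to 21061586) was at 7.63, 9.64 and 6.42 TPM in the sgMETTL16 inputs and at 4.25 TPM in sgNS. AJUBA (chromosome 14, 22971177 to 22982551) was at 47.55, 59.73 and 48.43 TPM in the sgMETTL16 inputs and at 29.21 TPM in sgNS. The ratios of means for LATS2 (1.86) and AJUBA (1.78) were smaller than that of AMOTL2, and in all 3 genes the sgMETTL16 inputs lay above sgNS.

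The coactivators and their DNA-binding partner were also above sgNS in all 3 sgMETTL16 inputs. YAP1 (chromosome 11, 102110447 to 102233424) was at 15.85, 23.08 and 11.85 TPM in the sgMETTL16 inputs and at 9.79 TPM in sgNS. WWTR1 (chromosome 3, 149517235 to 149724788) was at 14.92, 18.58 and 11.19 TPM in the sgMETTL16 inputs and at 8.52 TPM in sgNS. TEAD1 (chromosome 11, 12674421 to 12944737) was at 9.27, 9.69 and 6.12 TPM in the sgMETTL16 inputs and at 4.20 TPM in sgNS. The means were 1.73, 1.75 and 1.99 times the sgNS value for YAP1, WWTR1 and TEAD1. On TPM as deposited sgMETTL16-3 came closest to the control in each of the 3 genes. With each library centred on its median gene this did not hold. The closest was then sgMETTL16-1 for YAP1 (log2 difference 0.01) and WWTR1 (0.11), and sgMETTL16-2 for TEAD1 (0.26).

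**Figure D2:**
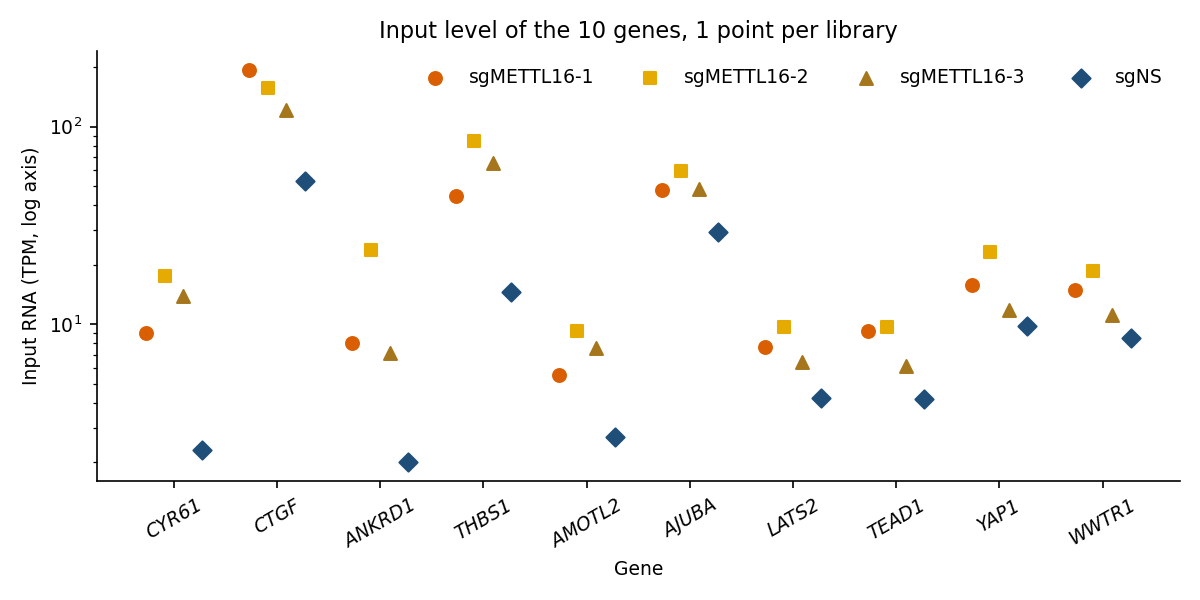
Input level of the 10 genes in TPM on a log axis, with 1 point for each of the 4 libraries. The sgNS point (diamond) is the lowest for every gene, and the gap is wide for CYR61, ANKRD1 and THBS1 and narrow for YAP1 and WWTR1.

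All 10 members were above sgNS in all 3 sgMETTL16 inputs on TPM as deposited, and so were 64.1% of the 10967 genes tested. The median tested gene was 0.46 higher in sgMETTL16 on the log2(TPM + 1) scale, by 0.56 in sgMETTL16-1, 0.65 in sgMETTL16-2 and 0.14 in sgMETTL16-3. The larger share of TPM in protein-coding genes in sgMETTL16-1 and sgMETTL16-2, given above, moved with this shift, and its part in the result was not tested. With every library centred on its median gene, all 10 members still stood above sgNS in all 3 cultures, against 23.4% of the tested genes. Nothing is read from either count, since the choice of genes used this contrast. The 3 cultures share 1 sgNS library, so these are not 3 independent differences. The members' median log2 change was 0.47 after centring, with all tested genes at -0.06, and 1.00 on TPM as deposited, with all tested genes at 0.46.

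In the limma fit over all genes CYR61, THBS1 and ANKRD1 were past an adjusted p of 0.05 in the higher direction, 3 of the 10 members tested. In that direction 1.58% of all tested genes were called, and in the lower direction 1.25% were called but no member. As the members were chosen with this contrast known, nothing is read from that count. The centred log2 change was 1.55 for CYR61 (SE 0.37), 1.51 for THBS1 (SE 0.40), 1.49 for ANKRD1 (SE 0.37) and 0.99 for CTGF (SE 0.42). AMOTL2 was at 0.65 (SE 0.36), and the 5 other genes lay between 0.16 for YAP1 and 0.30 for TEAD1. Those 5 changes were smaller than their standard errors of 0.37 to 0.40. All these standard errors came from a trend over all genes, and the spread of the single gene did not enter them. On TPM as deposited, where the gene's own spread had a part, they were 0.42 for CYR61, 0.39 for THBS1, 0.72 for ANKRD1 and 0.29 for CTGF. Without sgMETTL16-1 none of the 3 calls was left, with CYR61 at 1.85, THBS1 at 1.81 and ANKRD1 at 1.76, and on TPM as deposited none passed either, at 2.08, 2.04 and 2.02. CTGF passed without sgMETTL16-3, at 0.98. Over all genes 310 were called, but 110 without sgMETTL16-1 and 664 without sgMETTL16-3.

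**Figure D3:**
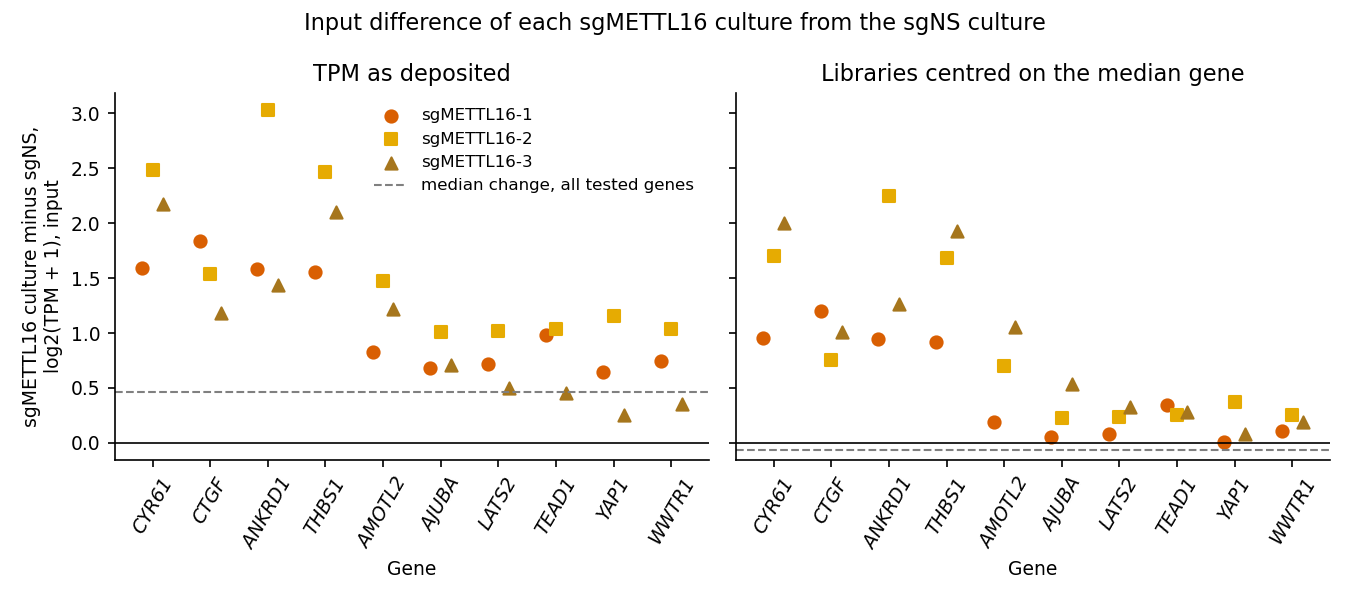
Input difference of each sgMETTL16 culture from the sgNS culture on the log2(TPM + 1) scale, on TPM as deposited (left) and after centring on the median gene (right); the dashed line is the median change of all tested genes. After centring, CYR61, CTGF, ANKRD1 and THBS1 lie at 0.76 or more in every culture, and YAP1, WWTR1, TEAD1 and LATS2 lie at 0.38 or less.

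Ratios between members of the same library do not depend on how libraries are scaled. CYR61 had 0.567, 0.760 and 1.18 times the TPM of YAP1 in the sgMETTL16 inputs, against 0.237 times in sgNS. For ANKRD1 the ratio to YAP1 was 0.507, 1.02 and 0.606 in the sgMETTL16 inputs, against 0.206 in sgNS. For THBS1 it was 2.81, 3.67 and 5.53 in the sgMETTL16 inputs, against 1.48 in sgNS. The lowest sgMETTL16 ratio of these 3 genes was 2.39, 2.46 and 1.90 times the sgNS ratio, in the order CYR61, ANKRD1 and THBS1. CTGF to YAP1 was 12.1, 6.77 and 10.3 in the sgMETTL16 inputs and 5.43 in sgNS, and AMOTL2 to YAP1 was 0.350, 0.402 and 0.641 in the sgMETTL16 inputs and 0.275 in sgNS. The ratios of WWTR1, LATS2, AJUBA and TEAD1 to YAP1 in the sgMETTL16 inputs lay on both sides of the sgNS ratio. WWTR1 to YAP1 was at 0.941, 0.805 and 0.944 in the sgMETTL16 inputs and at 0.870 in sgNS.

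The order of levels, which TPM allows because it is scaled by length, differed between the groups. By the mean of the sgMETTL16 inputs it was CTGF, THBS1, AJUBA, YAP1, WWTR1, CYR61, ANKRD1, TEAD1, LATS2 and AMOTL2. Only the steps between CTGF and THBS1 and between AJUBA and YAP1 separated the ranges of neighbouring genes, and the other 7 neighbours overlapped. In sgNS AJUBA was above THBS1, as it was in sgMETTL16-1, and CYR61 and ANKRD1 were the lowest members. AJUBA stood at 1.07, 0.705 and 0.738 times THBS1 in the sgMETTL16 inputs, against 2.01 times in sgNS.

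The sgMETTL16 cultures differed among themselves. On TPM as deposited, 9 of the 10 members were highest in sgMETTL16-2, as were 54.3% of all tested genes, and CTGF was highest in sgMETTL16-1. After centring, CYR61 differed from sgNS by 0.95, 1.70 and 2.00 in sgMETTL16-1, sgMETTL16-2 and sgMETTL16-3, and THBS1 by 0.92, 1.68 and 1.93. ANKRD1 followed another order, with 0.95, 2.25 and 1.27, as did CTGF, with 0.76 in sgMETTL16-2, 1.01 in sgMETTL16-3 and its largest difference in sgMETTL16-1, the culture where CYR61 and THBS1 were smallest.

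Over the 3 centred differences, 4194 other genes with a mean input of 10 TPM or more were ranked by their Euclidean distance to CYR61. The phosphatase gene DUSP1, which like CYR61 is an immediate-early gene, came first (distance 0.047). DUSP1 stood at 14.29, 28.05 and 22.01 TPM in the sgMETTL16 inputs and at 4.05 TPM in sgNS. THBS1 came second (0.080), followed by PLAU, the urokinase-type plasminogen activator (0.213), TIMP2, an inhibitor of matrix metalloproteinases (0.231), and the small nucleolar RNA SNORD67 (0.247). ANKRD1 ranked 78 and CTGF 190. The ranking rests on 3 differences that share the sgNS library.

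Among listed upstream genes of the pathway, limma called none in either direction. This held for 6 tested genes of the core kinase cassette, 14 upstream activators and 16 inhibitors of LATS or of the Hippo kinases. In that order the lists include the members LATS2, AMOTL2 and AJUBA, whose choice used this contrast. At an unadjusted p under 0.05 the counts were 0, 1 and 0, with 11.2% of all tested genes there. The median log2 changes of these lists were 0.19, 0.17 and 0.13 after centring (all tested genes, -0.06) and 0.72, 0.70 and 0.66 on TPM as deposited (all tested genes, 0.46). MOB1A, a coactivator of the LATS kinases, was at 0.33 (SE 0.37). MAP4K3, a kinase of the family that activates LATS, was at 9.34, 14.60 and 5.48 TPM in the sgMETTL16 inputs and at 2.56 TPM in sgNS, a log2 change of 0.98 (SE 0.37). MAP4K4 of that family was at 75.42, 55.36 and 36.58 TPM in the sgMETTL16 inputs and at 57.30 TPM in sgNS. Its log2 change was -0.63 after centring (SE 0.40) and -0.10 on TPM as deposited. Of the 14 activators 9 lay above 0 after centring, as did 43.0% of all tested genes. LIMD1, a relative of AJUBA, was at 0.59 (SE 0.38), and STRN3, a subunit of the phosphatase complex that opposes STK3 and STK4, was at 0.66 (SE 0.38).

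TEAD1 was the least abundant of the 4 TEAD genes. TEAD2 was at 13.76, 13.66 and 12.69 TPM in the sgMETTL16 inputs and at 14.18 TPM in sgNS, a log2 change of -0.61 after centring (SE 0.38) and of -0.08 on TPM as deposited. TEAD4 was at 26.79, 29.04 and 25.67 TPM in the sgMETTL16 inputs and at 25.89 TPM in sgNS, a change of -0.46 after centring (SE 0.39) that turned to 0.07 on TPM as deposited. TEAD3, chosen for mention with its values known, had 27.90, 28.83 and 28.43 TPM in the sgMETTL16 inputs and 19.92 TPM in sgNS. Of the 7 tested genes in the list of TEAD factors and cofactors limma called none, with 0 at an unadjusted p under 0.05, and VGLL1 and VGLL2 were at 0 in all inputs. Among the tested genes are the members TEAD1, YAP1 and WWTR1, whose choice used this contrast.

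Of 22 listed target genes of YAP and TAZ, 15 were tested, 2 passed in the higher direction (CYR61 and ANKRD1) and none in the lower. Those 2 are members, and so are CTGF, AMOTL2 and LATS2 of the same list. The list's median log2 change was 0.56 after centring and 1.09 on TPM as deposited, and 13 of the 15 lay above 0 after centring, as did 43.0% of all tested genes. Leaving out the 5 members, whose choice used this contrast, 8 of 10 lay above 0, with a median of 0.36 after centring and 0.88 on TPM as deposited. Limma called none of these 10, and 1 had an unadjusted p under 0.05. That 1 gene was F3, at 1.67, 3.54 and 2.39 TPM in the sgMETTL16 inputs and at 0.50 TPM in sgNS (log2 change 0.67, SE 0.31). GADD45A, a growth-arrest gene that p53 also induces, was at 11.89, 25.67 and 13.49 TPM in the sgMETTL16 inputs and at 6.38 TPM in sgNS (log2 change 0.68, SE 0.38). MYOF, IGFBP3, FJX1, FOXF2, CCDC80, TGFB2 and RBMS3 fell under the mean of 1 TPM that a test required.

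AP-1 factors, which often occupy the same enhancers as TEAD, had 5 tested genes of 7 listed, all above 0 after centring with a median of 0.80. Limma called none of them, and 3 had an unadjusted p under 0.05, which 11.2% of all tested genes had. FOSL2 was at 16.97, 19.02 and 18.40 TPM in the sgMETTL16 inputs and at 5.50 TPM in sgNS (log2 change 1.03, SE 0.38). JUN was at 20.34, 32.63 and 27.57 TPM in the sgMETTL16 inputs and at 8.83 TPM in sgNS (log2 change 0.95, SE 0.38). Of the 8 tested targets of actin signalling and SRF limma called none, with 1 at an unadjusted p under 0.05, and their median was -0.10 after centring and 0.43 on TPM as deposited. That 1 gene was TAGLN, lower at 2.27, 2.26 and 2.35 TPM in the sgMETTL16 inputs and 3.22 TPM in sgNS. Its log2 change was -0.89 after centring (SE 0.33) and -0.36 on TPM as deposited. In the same list ACTA2 was at 0.60 (SE 0.39), and CNN2 was at -0.57 (SE 0.41) after centring and -0.04 on TPM as deposited.

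**Figure D4:**
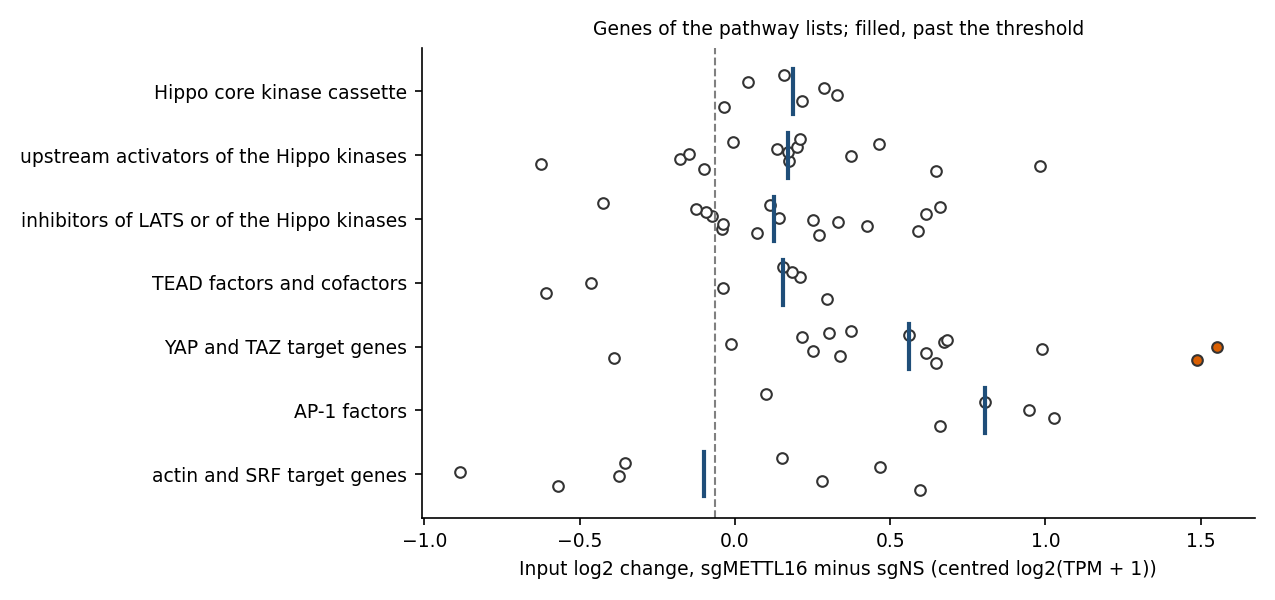
Centred input log2 change (sgMETTL16 minus sgNS) of every tested gene in 7 lists; filled points passed the adjusted p threshold, blue bars are list medians and the dashed line is the median of all tested genes. CYR61 and ANKRD1 are the 2 filled points. The medians of the lists of upstream genes lie at 0.13 to 0.19, with single genes from -0.63 (MAP4K4) to 0.98 (MAP4K3).

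CTGF, CYR61 and THBS1 are also abundant in fibroblasts and endothelial cells. Of 10 fibroblast markers 9 were under 1 TPM in all inputs and 6 at 0, among them COL1A2, COL3A1, DCN and LUM, which had no footprints either. Their summed level was 4.61 to 5.69 TPM in sgMETTL16 and 2.74 TPM in sgNS, most of it PDGFRB. Of 10 endothelial markers 9 were under 1 TPM, with KDR, TEK and ERG at 0 in all 8 libraries. The remaining marker, the junction gene ESAM, was at 13.91, 22.40 and 22.95 TPM in the sgMETTL16 inputs and at 3.15 TPM in sgNS and passed the threshold (log2 change 1.76, SE 0.38), so that the list summed to 15.4 to 24.4 TPM in sgMETTL16 and 4.09 TPM in sgNS. The 10 cholangiocyte and epithelial markers summed to 520, 792 and 686 TPM in the sgMETTL16 inputs and to 267 TPM in sgNS. Of its 7 tested genes SPP1 (osteopontin) passed, at 27.76, 116.83 and 32.50 TPM in the sgMETTL16 inputs and 10.51 TPM in sgNS, and CFTR was at 0. ELF3, an epithelial transcription factor, was at 7.19, 10.79 and 11.12 TPM in the sgMETTL16 inputs and 2.38 TPM in sgNS, and the keratin gene KRT19 at 363.69, 479.81 and 497.56 TPM in the sgMETTL16 inputs and 156.59 TPM in sgNS, neither of them called. SOX9 went the other way after centring (log2 change -0.36, SE 0.41), at 71.05, 88.66 and 65.74 TPM in the sgMETTL16 inputs and 66.29 TPM in sgNS. Of the 7 tested genes 6 lay above 0 after centring, as did 43.0% of all tested genes, and 3 of the 10 markers were under 1 TPM in all inputs. Hepatocyte markers summed to 9499, 10043 and 6258 TPM in the sgMETTL16 inputs and to 5668 TPM in sgNS, with none of 12 called by limma and 0 at an unadjusted p under 0.05. These sums are of TPM as deposited. After centring the median log2 change of the hepatocyte markers was 0.05, with 6 of the 12 above 0. Whether a shift in cell types had a part in the members' levels was not tested. Fewer cells of a type and less RNA per cell cannot be told apart in bulk libraries.

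Ribosome footprints of the members were sparse: 26 of 40 values were above 0, with 8, 7 and 5 of the 10 genes seen in the sgMETTL16 libraries and 6 in sgNS. CTGF footprints had 219.67, 197.13 and 61.02 TPM in the sgMETTL16 libraries, against 73.40 TPM in sgNS. THBS1 footprints were at 53.82, 100.50 and 19.53 TPM in the sgMETTL16 libraries, against 39.18 TPM in sgNS. For both genes sgMETTL16-1 and sgMETTL16-2 lay above the control and sgMETTL16-3, the library that stood apart, below it.

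ANKRD1 had footprints in every sgMETTL16 library, at 30.76, 170.60 and 14.53 TPM, and was listed at 0 in sgNS. CYR61 was at 13.21 and 45.79 TPM in sgMETTL16-1 and sgMETTL16-2 and was listed at 0 in sgMETTL16-3 and in sgNS. In both genes the highest footprint value was in sgMETTL16-2, which also had their highest input. YAP1 footprints were at 5.58, 11.60 and 10.53 TPM in the sgMETTL16 libraries and at 10.56 TPM in sgNS. WWTR1 footprints were at 29.87, 8.29 and 0 TPM in the sgMETTL16 libraries and at 11.31 TPM in sgNS, and AJUBA footprints were at 21.18, 14.69 and 0 TPM in the sgMETTL16 libraries and at 13.36 TPM in sgNS. For these 3 genes the sgNS value fell inside the range of the sgMETTL16 libraries. AMOTL2 footprints were at 5.68 TPM in sgMETTL16-3, listed at 0 in sgMETTL16-1 and sgMETTL16-2, and at 11.40 TPM in sgNS. LATS2 was seen in sgMETTL16-1 alone, at 5.42 TPM.

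TEAD1 was listed at 0 in all 4 footprint libraries, as were TEAD2, TEAD3 and TEAD4, although TEAD3 and TEAD4 had inputs of 19.92 TPM or more. Of all genes tested in the input, 25.6% were at 0 in all 4 footprint libraries.

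**Figure D5:**
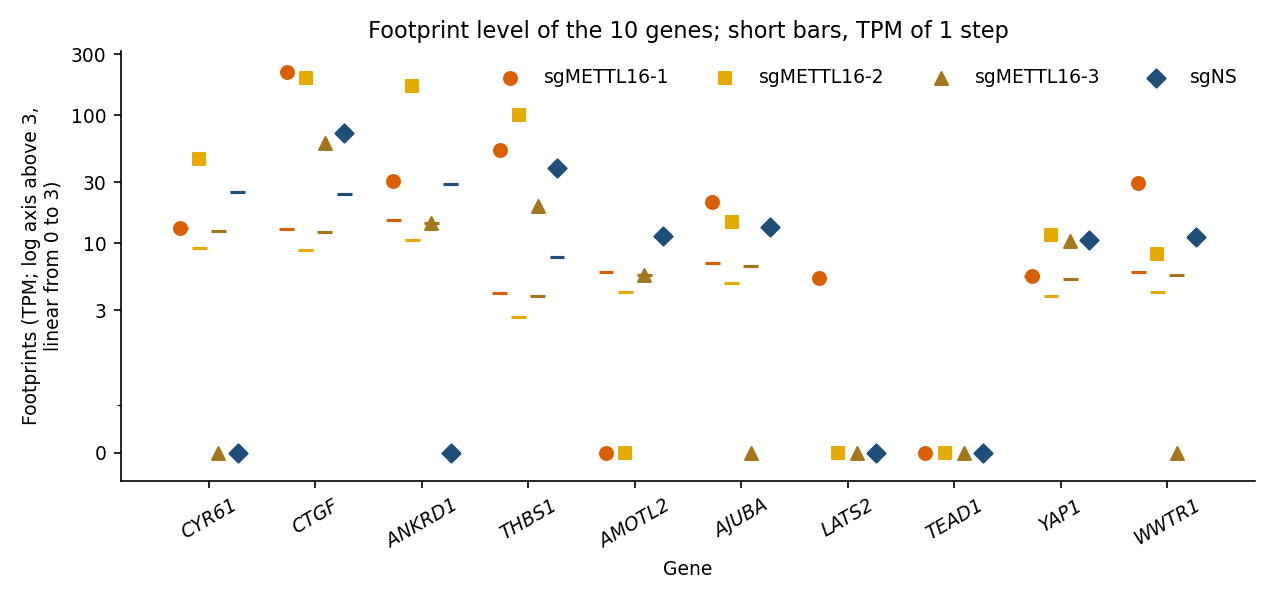
Footprint level of the 10 genes in TPM (log axis above 3, linear below), with 1 point for each of the 4 libraries; short bars mark the TPM of 1 step, where a step could be found. Most points for AMOTL2, AJUBA, YAP1 and WWTR1 lie within 3 steps, and sgNS (diamond) is at 0 for CYR61, ANKRD1, LATS2 and TEAD1.

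Footprint values moved in steps. Among genes above 0 in a sgMETTL16 footprint library and in sgNS, a single ratio recurred in 28.5%, 23.6% and 33.7% of the genes (within 0.02 in the natural log), which makes the TPM of a step in sgNS 1.89, 2.73 and 2.01 times that in sgMETTL16-1, sgMETTL16-2 and sgMETTL16-3. Divided by these step sizes, the values of 83.3% of 1870 genes above 0 in all 4 footprint libraries came out as whole numbers, within 0.05 of a step. In the fewest whole steps, CTGF had 17, 22 and 5 in sgMETTL16-1, sgMETTL16-2 and sgMETTL16-3 and 3 in sgNS, and THBS1 had 13, 35 and 5 in the sgMETTL16 libraries and 5 in sgNS. ANKRD1 had 2, 16 and 1 steps in the sgMETTL16 libraries and 0 in sgNS, and CYR61 had 1, 5 and 0 in the sgMETTL16 libraries and 0 in sgNS. The 4 members YAP1, AJUBA, WWTR1 and AMOTL2 had 1 step each in sgNS. In the sgMETTL16 libraries YAP1 had 1, 3 and 2 steps, AJUBA 3, 3 and 0, WWTR1 5, 2 and 0, and AMOTL2 0, 0 and 1. The true number of reads could be any common multiple of these, as TPM does not keep it. Expressed in TPM, a step of ANKRD1 in sgNS was worth 29.1 TPM, above its value of 14.53 TPM in sgMETTL16-3, so the value of 0 in sgNS does not place it below that library.

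On simulated data the footprint fit found almost none of the large changes put in, so a lack of calls there says nothing about whether genes changed. No member was called in the footprints, of 9 tested (TEAD1 had too low a mean), and 0.0% of 9297 genes passed with limma, where 1189 had an unadjusted p under 0.05. Translation efficiency, the ratio of footprint to input tested as an interaction of guide and kind of library, gave no call among 9 tested members either. There 0.0% of 8002 genes passed with limma, and 731 had an unadjusted p under 0.05. Fitted footprint changes of single members are not given, because the median tested gene, on which libraries were centred, was at 0 in sgNS and sgMETTL16-3. The ratio of footprint to input TPM for CTGF was 1.14, 1.26 and 0.501 in sgMETTL16-1, sgMETTL16-2 and sgMETTL16-3, against 1.38 in sgNS. For THBS1 it was 1.21, 1.19 and 0.298 in the sgMETTL16 libraries, against 2.70 in sgNS, and for ANKRD1 it was 3.83, 7.21 and 2.02 in the sgMETTL16 libraries and 0 in sgNS. The median gene above 0 in the footprints and at 1 TPM or more in the input had 1.65, 1.31 and 1.64 in the sgMETTL16 libraries. In sgNS that median was 3.65, so the ratio was higher there for genes at large. No change of a single member is read from these ratios.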

How the data were processed

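Processing notes of the submitters name STAR, without a version, RSEM 1.2.31 and the build GRCh38. The authors deposited TPM of 26830 gene symbols in 8 libraries, 3 sgMETTL16 cultures and 1 sgNS culture by input and footprint. Read totals were not used here, so no counting interval is given. Genes with a mean of 1 TPM or more (in both kinds of library for translation efficiency) entered a limma fit (version 3.58.1, R 4.3.3) of log2(TPM + 1), a scale that understates changes of low genes. Libraries were centred on the median tested gene, with an intensity trend and Benjamini-Hochberg adjustment over all tested genes. On simulated data the input fit recovered nearly all of the large changes put in and the footprint fit almost none. Each simulated gene took its spread from a smoothed trend, the same for sgNS, much as the input fit assumes. That recovery therefore does not cover genes whose own spread departs from the trend. The translation efficiency fit was not simulated. The spread of the sgMETTL16 cultures, guides included, stood in for that of the single sgNS culture. In the main input fit that spread was taken from the trend over all genes, so a gene's own spread did not enter its standard error.

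The members, gene lists and tests were chosen with earlier results of these data known. Named genes were the 10 members, list members past the threshold and up to 2 others per list (largest input change, mean input of 5 TPM or more), and the 5 nearest genes to CYR61. Other genes named at or near 0, other HEK293 markers, PDGFRB, SOX9, MAP4K4, TEAD3, TAGLN and F3 were chosen after their values were seen. Promoters came from RefSeq (GRCh38.p14), matched by gene ID. Gene types came from the same annotation, with 23987 symbols found under their own name and 1395 under an earlier one. Alternatives were other pseudocounts, filters and scalings, protein-coding genes only, no intensity trend and leaving out a culture.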

Additional observations from a re-analysis of the deposited data

Results flagged for a closer look

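AMOTL2 had TPM differences of opposite sign in the 2 kinds of library: all 3 sgMETTL16 inputs were above sgNS and all 3 sgMETTL16 footprint libraries were below it. Its footprints averaged 1.89 TPM in sgMETTL16 and stood at 11.40 TPM in sgNS, a difference of -9.51 TPM, while its input averaged 7.48 TPM in sgMETTL16 and stood at 2.69 TPM in sgNS. The difference in TPM itself was not tested. In the limma interaction of guide and kind of library, which compares input and footprint changes on the log2(TPM + 1) scale, AMOTL2 was not called. The footprint values correspond to 1 step in sgMETTL16-3 and 1 step in sgNS, worth 5.68 and 11.4 TPM. A step in sgMETTL16-1 or sgMETTL16-2 would be worth 6.01 or 4.17 TPM, also below the sgNS value. No direction is therefore read from the footprints of AMOTL2.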

How the results depend on the processing

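No member's input change reversed its sign in the 11 alternatives. Of 110 member values, 100 stayed on the same side of the threshold, 7 lost a call and 3 gained one (CTGF). CYR61 ranged from 1.33 to 2.08 and was called in 9 of 11, ANKRD1 from 1.11 to 2.02 and 9 of 11, and THBS1 from 1.30 to 2.04 and 8 of 11. Over protein-coding genes THBS1, at 1.45, was not called. The count of genes called in the input was 310 and became 23 on TPM as deposited, 532 with quantile normalization and 110 to 664 without 1 sgMETTL16 culture. In the footprints the count of 0 became 6 with no filter, 37 with a minimum of 5 TPM, 580 on TPM as deposited, 606 with quantile normalization and 0 to 130 without 1 culture (122 without sgMETTL16-1, 130 without sgMETTL16-2). For translation efficiency the count of 0 became 651 with no filter, 92 with a minimum of 5 TPM, 14 on TPM as deposited, 16 with quantile normalization and 0 to 21 without 1 culture (21 without sgMETTL16-1). The cause was not tested. With the shared guide label as a replicate block 0 genes passed for translation efficiency (limma, 283 at an unadjusted p under 0.05). The correlation of deviations of same-numbered input and footprint libraries was 0.01 to 0.06 over 8002 genes. For different-numbered libraries it was -0.08 to 0.04. These ranges overlap, so the correlation does not settle the pairing. Leaving out sgNS gives no contrast. Members' footprint and efficiency changes were fitted under the same alternatives, and limma called no member in any of them. Read depth is unknown, and many of the members' footprint values rest on 1 to 5 steps.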
